A study of Mus musculus with 2 samples.

Results

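The 10 genes described here are the core of the mammalian circadian clock as it appears in whole pieces of mouse brain: the activators Arntl and Clock, the period genes Per1, Per2 and Per3, the cryptochromes Cry1 and Cry2, the receptors Nr1d1 and Nr1d2, and the output factor Dbp. They were chosen by gene symbol, and all 10 were found among 53055 genes that could be joined between the posterior and the anterior library. Every one of them also lay among the 13339 protein-coding genes that reached 1 FPKM in either library, which served as the background. The series holds 2 bulk polyA RNA-seq libraries of brain tissue of wild-type C57BL/6J males aged 14 weeks. One library came from a posterior piece and the other from an anterior piece, each matched in position along the brain to slices that the study imaged in place by MERFISH. Neither piece had been treated, no allele other than wild type is named, and the sources used here do not give the hour at which the tissue was taken. There was 1 library per position, so no difference below has a replicate check and no test across samples was possible.

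The circadian clock is a feedback loop of transcription with a period of about a day. ARNTL (also called BMAL1) and CLOCK bind E-box sequences as a pair and turn on the period and cryptochrome genes, whose proteins return to the nucleus and block that pair. The REV-ERB receptors NR1D1 and NR1D2 are driven by the same E-boxes and repress Arntl through an orphan receptor element, so that Arntl RNA is high when Nr1d1 RNA is low. DBP acts on D-box sequences and carries the rhythm to other genes. In nocturnal rodents Nr1d1, Dbp and the period genes reach their highest RNA levels between the middle of the day and dusk in most tissues, whereas Arntl, and weakly Clock, peak near dawn. The ratio of the day-to-dusk genes to the dawn genes therefore carries the phase at which a tissue was frozen. The master clock lies in the suprachiasmatic nucleus of the hypothalamus, a minute part of any such piece.

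The promoters of 4 members are printed because they carry, between them, the 3 kinds of control element of this loop. They are from RefSeq on GRCm38.p6, run 5′ to 3′ on the strand of the gene, and capitals mark the letters of a motif. A match is a description of the letters in the window.
Per1, chr11:69098699-69098998, plus strand: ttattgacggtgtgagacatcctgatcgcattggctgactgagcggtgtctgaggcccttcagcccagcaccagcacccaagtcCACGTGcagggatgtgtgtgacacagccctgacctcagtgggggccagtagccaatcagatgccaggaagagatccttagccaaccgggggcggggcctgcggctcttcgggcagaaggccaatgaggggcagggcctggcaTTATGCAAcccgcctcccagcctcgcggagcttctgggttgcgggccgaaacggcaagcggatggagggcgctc
Cry1, chr10:85185005-85185304, minus strand: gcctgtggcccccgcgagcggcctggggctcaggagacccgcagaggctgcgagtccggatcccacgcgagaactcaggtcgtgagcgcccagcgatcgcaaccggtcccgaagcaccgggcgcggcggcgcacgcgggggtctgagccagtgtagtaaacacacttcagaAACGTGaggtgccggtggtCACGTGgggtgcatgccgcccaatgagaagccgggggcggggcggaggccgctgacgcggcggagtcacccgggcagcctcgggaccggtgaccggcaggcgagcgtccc
Nr1d1, chr11:98775328-98775627, minus strand: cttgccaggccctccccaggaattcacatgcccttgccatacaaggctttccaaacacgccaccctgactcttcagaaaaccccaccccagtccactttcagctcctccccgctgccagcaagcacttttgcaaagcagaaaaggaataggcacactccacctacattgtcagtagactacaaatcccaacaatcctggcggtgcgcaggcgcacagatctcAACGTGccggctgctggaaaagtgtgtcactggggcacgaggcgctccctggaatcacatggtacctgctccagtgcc
Arntl, chr7:113207261-113207560, plus strand: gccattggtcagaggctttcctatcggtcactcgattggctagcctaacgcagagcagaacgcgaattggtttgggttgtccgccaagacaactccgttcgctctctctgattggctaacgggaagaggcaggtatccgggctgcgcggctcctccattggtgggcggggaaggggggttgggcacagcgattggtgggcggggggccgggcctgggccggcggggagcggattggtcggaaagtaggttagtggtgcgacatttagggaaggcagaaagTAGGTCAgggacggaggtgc
The Per1 window held the E-box CACGTG, with its first base 166 bases before the start of transcription, and the D-box TTATGCAA 24 bases before it. In Cry1 the E-box lay 60 bases before the start and the related CACGTT, read on the other strand as AACGTG, 79 bases before it. Nr1d1 held the same variant, also on the other strand, 28 bases before its start. Arntl held the orphan receptor element TAGGTCA 31 bases after its start, in the window of the second of its overlapping RefSeq starts. Promoter windows were matched for 9 of the members, with 13 windows in all, and Per2 was not matched. Searched on both strands, CACGTG was in 2 of the 13 windows and in 7.15% of all 32851 RefSeq mouse promoter windows of that length. The variant CACGTT was in 3 of the 13 and in 4.68% of all. The D-box TTATGNAA was in 2 of the 13, those of Per1 and Per3, and in 3.38% of all, and TAGGTCA was in 1 of the 13 and in 2.61% of all. The cAMP response element TGACGTCA was in 0 of the 13 and in 1.79% of all.

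All 10 clock genes were expressed in both pieces of brain at moderate levels. As levels per length, in FPKM (fragments per kilobase of RNA per 1000000 fragments), the posterior library ranged from 36.3 for Dbp to 5.87 for Per2, and the anterior library from 39.6 for Nr1d1 to 5.55 for Arntl. The posterior order was Dbp at 36.3 FPKM, Cry2 at 34.1 FPKM, Nr1d2 at 32.0 FPKM, Nr1d1 at 30.2 FPKM, Per1 at 18.9 FPKM, Clock at 14.6 FPKM, Arntl at 12.8 FPKM, Per3 at 10.5 FPKM, Cry1 at 6.74 FPKM and Per2 at 5.87 FPKM. Every neighbour in that order stood apart by more than its counting interval. The anterior order was Nr1d1 at 39.6 FPKM, Nr1d2 at 29.2 FPKM, Cry2 at 26.0 FPKM, Dbp at 20.5 FPKM, Per1 at 15.3 FPKM, Clock at 11.1 FPKM, Per3 at 6.86 FPKM, Per2 at 6.61 FPKM, Cry1 at 5.61 FPKM and Arntl at 5.55 FPKM. There the counting intervals of Per3 and Per2 overlapped, as did those of Cry1 and Arntl. In both libraries the upper 4 places were held by the REV-ERB receptors, Cry2 and Dbp, and Per1 led the period genes. In the posterior library 7 of the 10 members lay above the median of 12.4 FPKM of expressed protein-coding genes, and in the anterior library 6 of the 10 lay above the median of 8.24 FPKM.

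**Figure D1:**
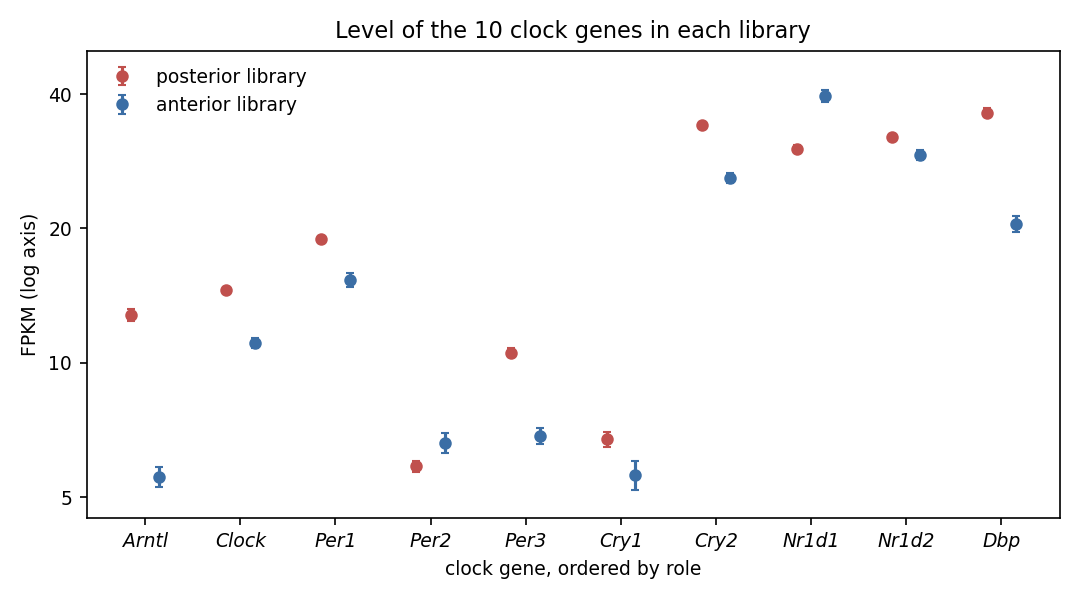
Level of each of the 10 clock genes, in FPKM on a log axis, in the posterior and the anterior library (1 library each, bars are 95% counting intervals). Dbp, Cry2, Nr1d2 and Nr1d1 lie between 20.5 and 39.6 FPKM in both libraries, and Per2 and Cry1 between 5.61 and 6.74 FPKM.

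The pieces were sequenced to different depths and processed differently. The posterior library held 147138183 estimated fragments and the anterior library 43558839, a ratio of 3.38, and the members took 100105 and 33207 of these in the posterior and anterior libraries. The posterior values were scaled to the effective length of each transcript, and the anterior values to the full length of all exons of a gene. For the members the anterior length was between 1.06 times (Per2) and 3.13 times (Arntl) the posterior one, with a median over the compared genes of 1.87. Differences between the libraries are therefore given as the share of a gene in the protein-coding fragments of its library, on a log2 scale with a pseudocount of 0.5 added to the share (counted per 1000000 fragments) and centred on the median compared gene. Ratios of shares carry an exact 95% interval that covers counting error only. Where an FPKM difference is given beside it, that value is likewise centred on the median compared gene, which lay 0.63 higher in the posterior library by FPKM and 0.0030 higher by share. A gene with more FPKM in the posterior library can therefore have an FPKM difference below 0. In bulk tissue, fewer cells that express a gene and less RNA per cell cannot be told apart. Markers of neurons were abundant in both pieces, with a summed level of 1635 FPKM over 4 markers in the posterior library and 992 FPKM in the anterior library, and a median log2 difference of −0.42 by share but 0.13 by FPKM. The 4 oligodendrocyte markers summed to 2734 FPKM in the posterior library and 568 FPKM in the anterior library, and their median log2 difference was 0.89 by share and 1.32 by FPKM. Their part in the clock gene differences was not tested.

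No member of the clock differed 2-fold between the posterior and the anterior brain by fragment share. Of the compared genes, 8.19% had a posterior share at least 2-fold above the anterior one and 1.84% had one at least 2-fold below it, so counts of 0 of 10 members in both directions stand near the background. The members' log2 differences ran from −0.43 (Nr1d1) to 0.28 (Cry1) with a median of −0.0085, beside a median of 0 and quartiles of −0.21 and 0.32 over all compared genes. That range held 63.1% of the compared genes. The share was higher in the posterior library for 5 members (Per1, Per2, Per3, Cry1 and Dbp) and lower for 5 (Arntl, Clock, Cry2, Nr1d1 and Nr1d2). The centred FPKM difference was above 0 for 2 members, Arntl and Dbp.

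**Figure D2:**
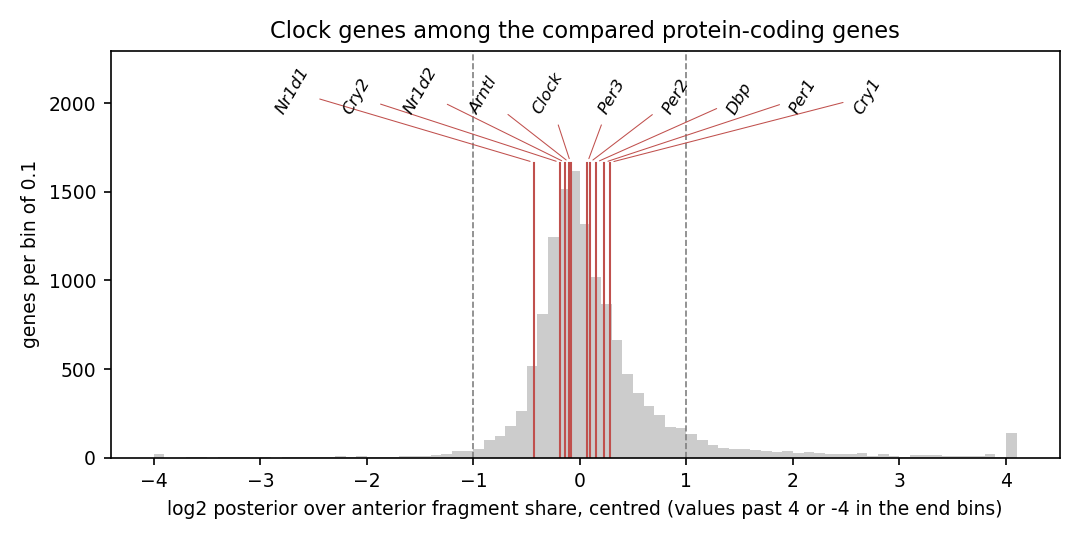
Histogram of log2 differences in fragment share, posterior over anterior, for the 13339 compared protein-coding genes, with the 10 clock genes marked. All 10 marks lie between −0.43 and 0.28, inside the lines at a 2-fold difference.

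The activators form the positive limb of the loop. Arntl (ENSMUSG00000055116, chr7:113207465-113314126, plus strand, GRCm38) had 4523 fragments in the posterior library against 1526 in the anterior library. That was a ratio of shares of 0.935 (0.883 to 0.992), a log2 difference of −0.098. Clock (ENSMUSG00000029238, chr5:76209868-76304792, minus strand), which encodes the DNA-binding partner of ARNTL, had 16624 fragments in the posterior library against 5565 in the anterior library, a ratio of 0.943 (0.915 to 0.972). Both partners were slightly lower in the posterior library by share, whereas the centred FPKM difference was 0.51 for Arntl and −0.25 for Clock. There were 0.272 Arntl fragments for each Clock fragment in the posterior library against 0.274 in the anterior library, a ratio of 0.992 (0.929 to 1.06) whose interval includes 1.

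The period genes encode the repressors that set the length of the cycle, and Per1 and Per2 also respond to light through cAMP signalling. Per1 (ENSMUSG00000020893, chr11:69095217-69109960, plus strand) had 11734 fragments in the posterior library against 3156 in the anterior library, a ratio of shares of 1.17 (1.13 to 1.22). Per2 (ENSMUSG00000055866, chr1:91415982-91459324, minus strand) had 4787 posterior and 1414 anterior fragments, a ratio of 1.07 (1.01 to 1.13). Per3 (ENSMUSG00000028957, chr4:151003652-151044665, minus strand), whose loss in mice leaves a nearly normal rhythm, had 8032 posterior and 2408 anterior fragments, a ratio of 1.05 (1.01 to 1.10). All 3 intervals lay above 1, with log2 differences up to 0.23, whereas all 3 centred FPKM differences lay below 0 (Per1 −0.34, Per2 −0.79, Per3 −0.044). Within the family as levels in FPKM, Per1 made up 53.6% of the posterior sum and 53.2% of the anterior sum, Per2 16.6% and 22.9%, and Per3 29.8% and 23.8%, each posterior and then anterior.

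The cryptochromes bind the activator pair directly and are potent repressors of the loop. Cry1 (ENSMUSG00000020038, chr10:85131700-85185064, minus strand) was the member highest in the posterior library relative to the anterior one, with 2654 posterior and 684 anterior fragments. The ratio of shares was 1.22 (1.13 to 1.33), and the centred FPKM difference had the other sign, at −0.38. Cry2 (ENSMUSG00000068742, chr2:92403646-92434043, minus strand) went the other way, with 16718 posterior and 5991 anterior fragments and a share 1.14-fold (1.10 to 1.17) lower in the posterior library. There were 0.159 Cry1 fragments for each Cry2 fragment in the posterior library against 0.114 in the anterior library, a ratio of 1.39 (1.27 to 1.52). Cry2 was the main cryptochrome in both pieces, at 83.5% of the summed FPKM of the pair in the posterior library against 82.2% in the anterior library.

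The REV-ERB receptors are the repressors of Arntl. Nr1d1 (ENSMUSG00000020889, chr11:98767932-98775333, minus strand) had 10474 fragments in the posterior library against 4452 in the anterior library. Its share was 1.35-fold (1.30 to 1.39) lower in the posterior library, the largest difference of any member, at percentile 9.72 of the compared genes. Nr1d2 (ENSMUSG00000021775, chr14:18204054-18239127, minus strand), its close relative, had 16664 posterior and 5769 anterior fragments, a share 1.10-fold (1.06 to 1.13) lower in the posterior library. The centred FPKM differences were −1.02 for Nr1d1 and −0.50 for Nr1d2. In fragments, Nr1d1 stood at 0.629 of Nr1d2 in the posterior library and at 0.772 of it in the anterior library, a ratio of 0.814 (0.778 to 0.853). Of the exon bases of Nr1d1, 263 of 3077 (8.55%) lie under exons of Thra on the opposite strand. Thra, a thyroid hormone receptor gene, was far more abundant, at 241 FPKM in the posterior library and 129 FPKM in the anterior library. The ratio of shares of Thra was 0.950 (0.936 to 0.965). The sources used here do not say whether the anterior fragments were counted by strand, and what Thra reads contribute to Nr1d1 was not tested.

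Dbp (ENSMUSG00000059824, chr7:45705088-45710203, plus strand) is among the genes with the deepest daily swing in mouse tissues. It had 7895 fragments in the posterior library against 2242 in the anterior library, a ratio of shares of 1.11 (1.06 to 1.17). Here 539 of 2993 exon bases (18.0%) lie under exons of Sphk2, a sphingosine kinase gene on the opposite strand. Sphk2 stood at 8.69 FPKM in the posterior library and 5.69 FPKM in the anterior library, with a ratio of shares of 1.35 (1.25 to 1.45), and its part in the Dbp value was not tested. Smaller overlaps lie in Cry2 (4.67% of exon bases, under D930015M05Rik) and Arntl (0.439%, under Gm45355), and none in the other members.

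**Figure D3:**
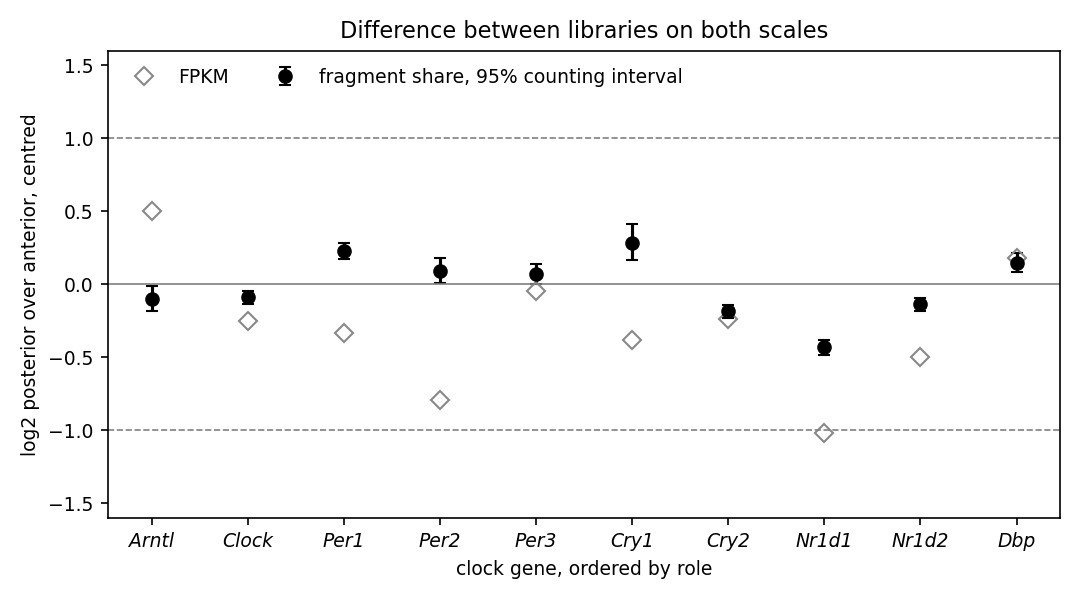
Log2 difference, posterior over anterior, of each clock gene by fragment share (with 95% counting intervals) and by FPKM, centred on the median compared gene. By fragment share all 10 genes lie within 2-fold, and by FPKM Nr1d1 passes 2-fold at −1.02 while Arntl stands at 0.51.

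The day-to-dusk genes and the dawn genes were set against each other, because their ratio can carry phase. With no hour given and 1 library per position, a difference in phase and one in cell content cannot be told apart here. The median log2 difference was 0.081 over Per1, Per2, Per3, Nr1d1, Nr1d2 and Dbp, and −0.093 over Arntl and Clock. The contrast of these medians was 0.17 with a counting interval of 0.10 to 0.25, which is 1.13-fold in favour of the day-to-dusk genes in the posterior library. Without the members whose exons lie partly under another gene, a choice made after the data were seen, it was again 0.17. That choice left Clock as the only dawn gene and the day-to-dusk median between Per3 and Per2, as before, so it is no separate check. The contrast was 0.058 with protein-coding transcripts only, and 0.0053 with the other genes of known phase added. The day-to-dusk genes did not all lie on one side of Arntl. Relative to Arntl, Per1 had 2.59 fragments in the posterior library against 2.07 in the anterior library, a ratio of 1.25 (1.17 to 1.35). Dbp had 1.75 fragments per Arntl fragment in the posterior library against 1.47 in the anterior library, a ratio of 1.19 (1.10 to 1.28). Per2 and Per3 gave ratios of 1.14 (1.05 to 1.24) and 1.13 (1.04 to 1.21). Nr1d1 gave the opposite, with 2.32 fragments per Arntl fragment in the posterior library against 2.92 in the anterior library, a ratio of 0.794 (0.741 to 0.850). Nr1d2 stood between them at 0.975 (0.912 to 1.04). On the FPKM scale the contrast had the other sign, at −0.55, and the ratio of Dbp to Arntl was then 0.769 of the anterior one.

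The balance among the members was read from the ratios of their fragments. Pairs of other genes were not examined. By share, 90.0% of the compared genes lay within 2-fold between the libraries, so small pair differences are not particular to the clock. The pairs also reuse the same 10 genes. Among the 45 possible pairs of members, the ratio of one to the other differed between the libraries by 2-fold in 0 and by under 1.5-fold in 43, with a median of 1.18-fold. The pair that differed most was Cry1 over Nr1d1, at 0.253 fragments in the posterior library against 0.154 in the anterior library, a ratio of 1.65 (1.50 to 1.81). The next was Per1 over Nr1d1, at 1.12 in the posterior library against 0.709 in the anterior library, a ratio of 1.58 (1.50 to 1.67). Both of these include Nr1d1.

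By FPKM in place of fragment share, after centring, 14.5% of the compared genes stood at least 2-fold above the anterior value in the posterior library and 7.11% at least 2-fold below it. On that centred scale 0 members stood 2-fold above the anterior value and 1, Nr1d1, stood 2-fold below it, with 30.2 FPKM in the posterior library against 39.6 FPKM in the anterior library and a centred log2 difference of −1.02. Apart from the pseudocount, the FPKM difference is the share difference plus the log2 of the length ratio, less a constant shared by all genes. That constant holds the shift of the median gene and the different fragment totals used by the 2 scales. Arntl, with a length ratio of 3.13, therefore had a positive FPKM difference of 0.51, and Per2, with a length ratio of 1.06, one of −0.79. In all, 5 members (Arntl, Per1, Per2, Per3 and Cry1) had opposite signs on the 2 scales.

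The posterior library, quantified per transcript, also shows which RNA of each clock gene was made. Shares below are of the FPKM of a gene, so they are per length, and they carry no interval because the estimation error of the quantification is not in the files used here. Each of the 10 members was led by a protein-coding transcript with more than 50% of the gene. Over 11965 genes the median leading share was 68.2%, and 93.3% of these genes were led by a protein-coding transcript. The share of these genes that meets both conditions was not counted, so the 10 of 10 has no direct background. Per2-201 took 100% of Per2, Cry1-201 97.6% of Cry1, and Nr1d1-201 96.0% of Nr1d1. Dbp-201 took 84.8%, Cry2-201 84.1%, Per1-201 83.4%, Nr1d2-201 76.9%, Arntl-201 76.4% and Per3-201 69.6%. The most divided on this scale was Clock, where Clock-205 took 59.1%, Clock-201 18.7% and Clock-204 11.0%. By fragments, not scaled to length, Clock-205 held 72.2% and Per3-201 76.9%.

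Arntl-206 differs from Arntl-201, and Clock-204 from Clock-205, in the encoded protein at a single short insertion. Each stretch is printed here with 30 bases on either side, 5′ to 3′ on the coding strand. Capitals mark bases that only the longer reading frame holds.
Arntl-201: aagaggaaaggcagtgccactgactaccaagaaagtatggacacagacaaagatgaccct
Arntl-206: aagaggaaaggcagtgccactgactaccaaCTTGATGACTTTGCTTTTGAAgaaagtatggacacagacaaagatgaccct
Clock-205: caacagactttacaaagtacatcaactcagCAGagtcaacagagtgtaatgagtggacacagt
Clock-204: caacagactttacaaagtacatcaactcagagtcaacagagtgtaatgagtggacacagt
Arntl-206, at 10.7% of the gene, has 21 more coding bases than Arntl-201, placed after 141 shared ones, and so 633 codons against 626. Clock-204 has 854 codons and lacks 3 bases that Clock-205, with 855 codons, holds after 1887 shared ones. Clock-201 has the same reading frame as Clock-205 with a shorter 3′ untranslated region, of 4525 bases against 6834. Likewise Cry2-202, at 5.50% of Cry2, codes for the same 592 codons as Cry2-201 with a 3′ untranslated region of 371 bases in place of 2180. Per1-202, at 14.7% of Per1, starts at 69095217 on chromosome 11, upstream of Per1-201, which starts at 69098948, and it is annotated with 827 codons against 1291.

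**Figure D4:**
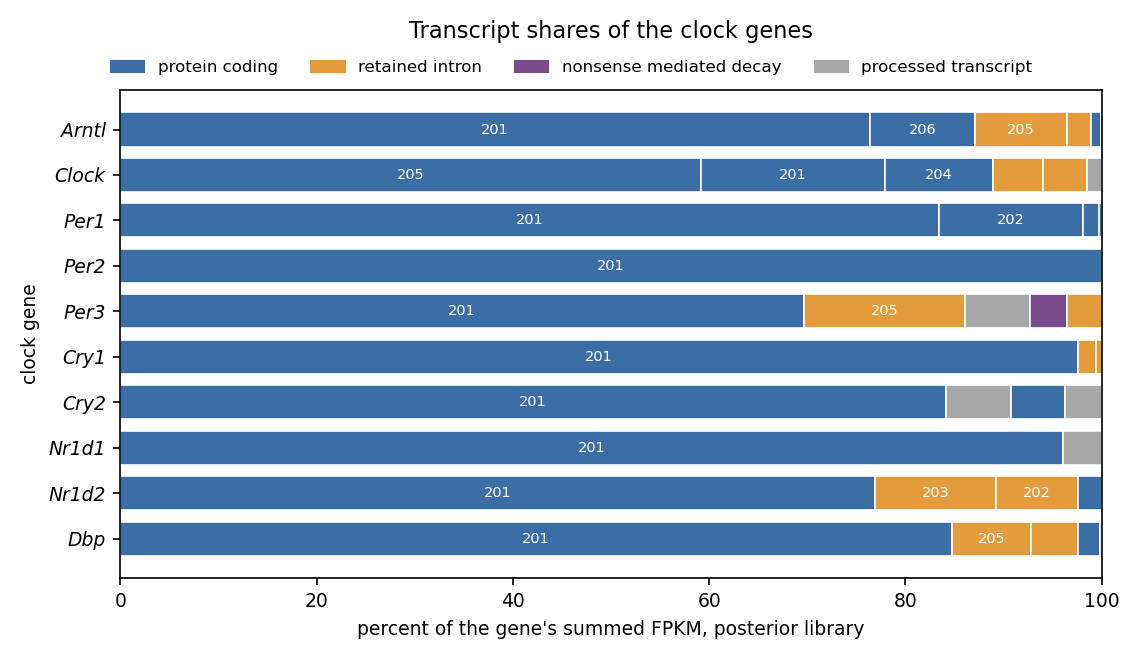
Share of each clock gene's FPKM held by its transcripts in the posterior library, in percent, grouped by annotated transcript class. Protein-coding transcripts fill all of Per2 and nearly all of Nr1d1, and retained-intron transcripts reach 20.6% of Nr1d2 and 19.9% of Per3.

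Transcripts annotated with a retained intron, which are not expected to yield the full protein, held 20.6% of the FPKM of Nr1d2, 19.9% of Per3, 12.8% of Dbp, 11.8% of Arntl, 9.60% of Clock and 2.45% of Cry1. The other members have no transcript of that class. Over 7630 genes that have one, the median was 9.24% with quartiles of 3.30% and 21.1%, and all 6 members with such a transcript lay below the upper quartile. These shares lean on short transcripts. Nr1d2-203 held 12.4% of the FPKM of Nr1d2 with 1.40% of its fragments.

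Beyond the core loop, 34 further clock genes were examined as paralogs, receptors, kinases, ubiquitin ligases and outputs. By fragment share 33 of the 34 lay within 2-fold, near the background, as 90.0% of all compared genes did so. Their median log2 difference was −0.12 by share and 0.12 by FPKM. The share differences had a range from −0.54 (Prkaa2, a kinase subunit) to 1.17 (Rora), and the median of all compared genes is 0 on both scales. The exception was Rora, a receptor that activates Arntl through the elements the REV-ERB receptors use, with 29972 fragments in the posterior library against 4183 in the anterior library. The ratio of shares was 2.26 (2.19 to 2.34), and by FPKM Rora stood at 24.0 in the posterior library against 8.76 in the anterior library, a centred log2 difference of 0.78. Rora is also a thalamic marker. The 4 thalamic markers examined, Rora among them, all had a posterior share at least 2-fold above the anterior one, with a summed level of 174 FPKM in the posterior library and 13.4 FPKM in the anterior library. The part of the thalamic content in the Rora difference was not tested. Its relative Rorb, a receptor of the brain and retina, had a log2 difference of 0.56 by share but −0.13 by FPKM.

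The other genes of known phase also lay within 2-fold by share, as did 90.0% of the compared genes. Npas2, a paralog of Clock that can replace it, had 15.0 FPKM in the posterior library and 11.0 FPKM in the anterior library, with a log2 difference in share of −0.40. There were 0.277 Npas2 fragments for each Clock fragment in the posterior library against 0.345 in the anterior library, a ratio of 0.803 (0.755 to 0.854). Of the D-box factors, Tef stood at 91.5 FPKM in the posterior library and 50.7 FPKM in the anterior library with a log2 difference in share of −0.13 (0.22 by FPKM), and Hlf at 46.1 and 41.6 FPKM, posterior and anterior, with −0.048 (−0.48 by FPKM). Nfil3, the repressor that competes at the same sites, stood at 0.145 fragments per Dbp fragment in the posterior library against 0.143 in the anterior library, a ratio of 1.01 (0.883 to 1.16). The log2 difference of Nfil3 was 0.15 by share and −0.59 by FPKM. Ciart, a repressor of the activator pair that peaks with the period genes, was lower in the posterior library at −0.48, and Usp2, a rhythmic ubiquitin protease, at −0.36. The E-box repressors Bhlhe40 and Bhlhe41 differed in direction on both scales. Bhlhe40 had a log2 difference in share of −0.41, whereas Bhlhe41 stood 1.97-fold (1.85 to 2.10) higher in the posterior library. With Npas2 and Nfil3 among the dawn genes, and Tef, Hlf, Ciart and Usp2 among the day-to-dusk genes, the phase contrast was the 0.0053 given above. Csnk1d and Csnk1e, kinases that mark period proteins for decay, differed by −0.032 and −0.0039 on the log2 scale by share, and by −0.079 and 0.87 by FPKM.

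**Figure D5:**
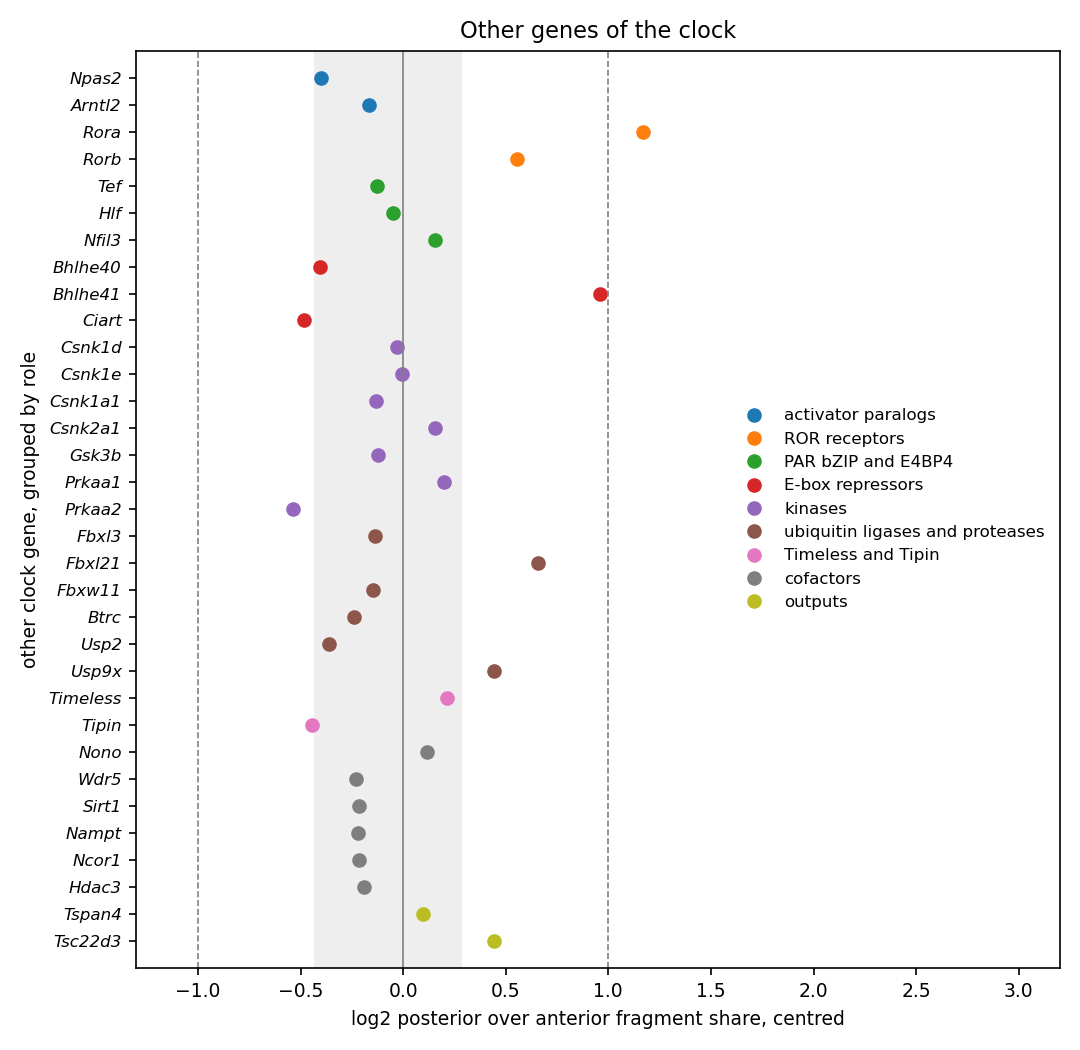
Log2 difference in fragment share, posterior over anterior, of 33 further clock genes grouped by role (1 point per gene, dashed lines at 2-fold, grey band for the range of the 10 members). Rora, at 1.17, lies past the 2-fold line, and Bhlhe41 follows at 0.96.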

How the data were processed

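PolyA RNA from 1 posterior and 1 anterior piece of mouse brain was sequenced as paired-end reads, per the labels' protocols. The authors deposited the anterior library as FPKM per gene, aligned with HISAT2 2.0.5 to mm10 per the submitters' processing notes. The sources used here do not give the counting program, annotation or strand setting. FPKM times gene length was a whole multiple of one step for 100% of 54532 genes (tolerance 0.001), which gave back whole fragments. The step was 27.4, larger than scaling to the 43558839 recovered fragments would give. The anterior FPKM were therefore scaled to a smaller total, which raises every anterior FPKM by the same factor. The sources used here do not give that total. The authors deposited the posterior library as estimated counts and TPM per transcript from Salmon (version not given in the sources used here), per the labels' protocols. Estimated counts were summed per gene, and FPKM was computed from them with the deposited effective lengths. Genes were joined by Ensembl identifier. Transcript structures came from GENCODE M21, which held 139172 of the 140992 posterior transcripts.

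The fragment share is per 1000000 protein-coding fragments (134495505 posterior, 42447919 anterior), with a pseudocount of 0.5. The pseudocount had been planned on an FPKM-like scale and was applied per 1000000 fragments. At least 2-fold on the centred scale was counted as a difference. Ratios of shares have exact Clopper-Pearson 95% intervals, with posterior counts rounded. Ratios of one gene to another between libraries have exact conditional 95% intervals, and FPKM levels have exact Poisson ones. These intervals reflect counting error alone. PCR copies of a molecule were not marked, so the intervals can be too narrow even for that error. Alternatives were the FPKM scale, other pseudocounts, filters and centring, and protein-coding transcripts only. Scripts were tested on simulated data. Distinct 31-base words also found in transcripts of other genes, on either strand, made up 16.9% of the words of Dbp. They made up 9.51% for Nr1d2, 7.85% for Nr1d1, 4.11% for Cry2 and under 1% for every other member. All members are named, with the other clock genes past 2-fold, those of known phase and those nearest to the line. One other clock gene is counted but its values are not reported here. Genes named outside that rule were chosen after their values were seen. The members and lists were chosen with earlier results of these data known. Python 3.11.15, pandas 2.3.3, NumPy 2.4.6, SciPy 1.17.1 and matplotlib 3.10.9 were used.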

Additional observations from a re-analysis of the deposited data

How the results depend on the processing

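With 1 library per position, no replicate could be left out. No paired analysis was possible because each position has a single library. The fragment share put 0 members past 2-fold in either direction under every alternative of pseudocount, filter, centring and transcript class run. By FPKM, 1 member (Nr1d1) and 1 other clock gene (Prkaa2) were 2-fold higher in the anterior library, Btrc in place of Rora was 2-fold higher in the posterior library, the phase contrast was −0.55 in place of 0.17, and the ratio of Dbp to Arntl was 0.769 in place of 1.19. FPKM differences are centred. Those of 9 of 10 members lay outside their counting intervals by share, and the signs of Arntl (0.51), Per1 (−0.34), Per2 (−0.79), Per3 (−0.044) and Cry1 (−0.38) turned. With protein-coding transcripts only, 7 members left their intervals, Per3 turned to −0.19, 2 other clock genes (Bhlhe41 and Rora) were higher in the posterior library and 1 (Arntl2) in the anterior library, and the contrast was 0.058. With the other genes of known phase added, the contrast was 0.0053. A pseudocount of 0.1 put 2 other clock genes past 2-fold in the posterior library, and centring on genes with no overlapping exons also put 2 (Bhlhe41 and Rora). Of all genes past 2-fold, 81.6% were higher in the posterior library by share, 67.1% by FPKM and 63.9% with protein-coding transcripts only, where 598 in place of 246 genes were higher in the anterior library. By FPKM 1933 genes were higher in the posterior library and 949 lower, in place of 1092 and 246 by share. The cause was not tested. Counting intervals hold no variation between animals.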

Other observations

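Genes listed for the suprachiasmatic nucleus included several that were concentrated in the posterior piece, whereas the peptides Vip and Grp had lower shares there. Avp, a clock-controlled peptide that other hypothalamic nuclei also make, had 1777 fragments (41.6 FPKM) in the posterior library against 4 fragments (0.190 FPKM) in the anterior library. Six3, a forebrain transcription factor, had 2516 posterior and 9 anterior fragments, and Vipr2, the receptor through which these neurons synchronise, had 1014 and 17. Lhx1 and Six6, which mark the nucleus during development, had 176 and 147 fragments in the posterior library and 0 of either in the anterior library, where a count of 0 allows up to 3 fragments. Of 8 listed genes that reached 1 FPKM, 4 had a posterior share at least 2-fold above the anterior one, beside 8.19% of compared genes. They were Avp, Six3, Vipr2 and Rgs16. Avp, Six3 and Vipr2 passed that filter only through the posterior library (0.190, 0.045 and 0.10 FPKM in the anterior library). The count is therefore partly set by the filter and is no separate support. Of the 8, 1 (Vip, with 2991 posterior and 2106 anterior fragments) was at least 2-fold below the anterior share, beside 1.84% of compared genes. Grp had 569 posterior and 312 anterior fragments, a share 1.74-fold (1.51 to 2.00) lower in the posterior library. Gpr176 and Rorb had log2 differences in share of 0.27 and 0.56. Nms, a peptide of this nucleus, had 1 fragment in each library.

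Genes that answer to hormones, heat and neuronal firing, which can also move Per1 and Per2, were examined as lists. Over all compared genes, 8.19% stood at least 2-fold above the anterior share and 1.84% at least 2-fold below it. By centred FPKM these backgrounds were 14.5% and 7.11%. Of 10 glucocorticoid response genes, 1 stood 2-fold above and 0 stood 2-fold below the anterior share, with a median log2 difference in share of 0.25. By FPKM, centred in the same way, 2 stood above and 1 below, with a median of −0.31. The gene 2-fold above by share was Mt2, with 8437 posterior and 10 anterior fragments, and 73.5% of its exon bases lie under another gene. Klf9 had 50.4 FPKM in the posterior library and 71.0 FPKM in the anterior library, yet its ratio of shares was 1.15 (1.12 to 1.18). Of 8 temperature response genes, 1 (Hspa1a) stood 2-fold above and 0 stood 2-fold below the anterior share, with a median of 0.016. Hspa1a stood at 0.65 by centred FPKM, and 19.0% of its exon bases lie under another gene. By centred FPKM 1 (Rbm3) stood above and 1 (Dnajb1) below, with a median of 0.21. Cirbp, a cold-inducible RNA-binding protein, stood at −0.71 by share and 0.0057 by FPKM. The chaperone genes Hspa8 and Hsp90aa1 had 797 and 423 FPKM in the posterior library, against 382 and 375 FPKM in the anterior library. The ratio of shares was 1.28 (1.26 to 1.29) for Hspa8 and 0.952 (0.943 to 0.962) for Hsp90aa1. The centred FPKM differences were 0.43 for Hspa8 and −0.46 for Hsp90aa1. Of 10 genes induced by light and neuronal activity, 0 stood 2-fold above and 1 (Npas4, at 1.63 FPKM posterior and 7.18 FPKM anterior) stood 2-fold below the anterior share, and the median was −0.32 (by centred FPKM 1 above, 4 below and −0.64). Egr1 had 39.3 FPKM in the posterior library and 58.2 FPKM in the anterior library, and Arc 22.0 and 32.0 FPKM.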
